A study of Rattus norvegicus with 30 samples.

Results

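The Cyp2c genes described here are the 6 rat genes Cyp2c7, Cyp2c11, Cyp2c12, Cyp2c13, Cyp2c22 and Cyp2c23, chosen by name. Each was read from 1 probe set, the set of short probes that the array holds for a transcript, out of 14217 genes with a probe set of their own. Liver RNA of Wistar/Han rats was measured on 30 Affymetrix whole-genome rat arrays, in 6 groups of 5 animals. The compound was DE-71, a commercial flame-retardant mixture of polybrominated diphenyl ethers (PBDE), given by gavage in corn oil at 50 mg/kg and a volume of 5 ml/kg. The groups were male PBDE pups and male control pups, female PBDE pups and female control pups, all on postnatal day 22, and adult male PBDE rats and adult male control rats at week 13. Dams of every group were dosed, with 50 or 0 mg/kg, on 7 days per week between gestation day 6 and postnatal day 21. Pups were dosed directly as well until postnatal day 21, and the adults went on after weaning on 5 days per week. Some labels call the controls untreated, while the dosing protocol gives them 0 mg/kg in corn oil. Every pup in a group had its own dam, and so had every adult within a dose group; the labels do not say whether pups of different groups shared one.

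Values are log2 expression levels made with RMA, so a difference of 1 is a doubling. Array medians lay between 5.72 and 5.77. The highest value of all was 15.46, and 60 of 31042 probe sets (0.193%) averaged 14 or more over the 30 arrays. Several Cyp2c levels reached 14 or more, where RNA differences may come out too small, and some lay below the array medians, where the same holds. A difference in such a bulk liver sample cannot tell fewer cells of a type from less RNA per cell. Array names fall into 2 sets: male PBDE pups and both pup control groups in one, female PBDE pups and both adult groups in the other. Xist lay between 3.08 and 3.67 on the 20 male arrays, against 10.75 to 12.24 on the 10 female arrays, and Y-linked Eif2s3y between 9.14 and 9.83 in males, against 3.30 to 3.82 in females, as labelled. The mean of 9 hepatocyte markers lay between 14.31 and 14.64 on all arrays, and that of 4 kidney markers, relevant because kidney also makes Cyp2c23, between 4.04 and 4.99.

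Cytochromes P450 of the Cyp2c subfamily are haem enzymes of the hepatocyte endoplasmic reticulum that oxidise steroids, retinoids, fatty acids and drugs with electrons passed on by the reductase Por. In adult rats the pattern of pituitary growth hormone release, pulsatile in males and near continuous in females, sets the sex-specific members through the factor Stat5b, and the set changes at puberty. Cyp2c11 and Cyp2c13 are known as testosterone hydroxylases of adult male rat liver, and Cyp2c12 as a steroid sulphate hydroxylase of adult female rat liver. Cyp2c7, a retinoic acid hydroxylase that is higher in adult females, is also a known target of drug-sensing nuclear receptors. Cyp2c22 is known as a retinoic acid hydroxylase of hepatocytes, and Cyp2c23 as an arachidonic acid epoxygenase of kidney and liver.

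All 6 genes lie on rat chromosome 1 in the RefSeq annotation of the build GRCr8. Cyp2c11 (chr1:246175216-246211445), Cyp2c7 (chr1:247966295-248022393), Cyp2c12 (chr1:248619887-248681945), Cyp2c13 (chr1:248706787-248787239) and Cyp2c22 (chr1:248941143-248980767) follow each other in that order, and Cyp2c23 (chr1:252838427-252863081) lies further along. The promoter windows of the 4 genes with large changes are printed because these members differ in how they are expressed although they lie on one chromosome. Each window runs 250 bases before to 50 after the RefSeq start site, on the gene's own strand, and capitals mark matches to the motifs named below.
Cyp2c7: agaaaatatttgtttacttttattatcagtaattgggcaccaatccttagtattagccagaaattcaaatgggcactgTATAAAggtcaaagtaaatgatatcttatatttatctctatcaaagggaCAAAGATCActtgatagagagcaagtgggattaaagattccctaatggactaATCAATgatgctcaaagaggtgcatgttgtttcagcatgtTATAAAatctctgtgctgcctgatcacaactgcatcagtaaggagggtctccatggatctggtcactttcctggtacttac
Cyp2c11: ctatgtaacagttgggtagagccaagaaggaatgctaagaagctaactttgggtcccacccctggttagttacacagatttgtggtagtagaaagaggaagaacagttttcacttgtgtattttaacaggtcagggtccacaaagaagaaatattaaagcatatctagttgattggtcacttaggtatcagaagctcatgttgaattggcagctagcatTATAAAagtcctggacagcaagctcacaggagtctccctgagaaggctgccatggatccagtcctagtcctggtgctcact
Cyp2c12: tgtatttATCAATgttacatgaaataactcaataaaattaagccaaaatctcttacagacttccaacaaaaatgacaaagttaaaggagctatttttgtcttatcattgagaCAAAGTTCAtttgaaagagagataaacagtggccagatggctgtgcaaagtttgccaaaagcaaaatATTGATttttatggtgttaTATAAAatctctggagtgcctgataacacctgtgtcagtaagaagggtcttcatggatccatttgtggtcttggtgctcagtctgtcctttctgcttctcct
Cyp2c13: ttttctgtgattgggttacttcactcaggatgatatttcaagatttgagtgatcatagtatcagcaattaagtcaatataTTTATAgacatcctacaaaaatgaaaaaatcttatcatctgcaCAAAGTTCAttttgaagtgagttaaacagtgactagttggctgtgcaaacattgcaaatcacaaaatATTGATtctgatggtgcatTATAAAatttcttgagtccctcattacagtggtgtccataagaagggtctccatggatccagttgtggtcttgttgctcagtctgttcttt
They are chr1:247966144-247966443 (plus strand), chr1:246174966-246175265 (plus), chr1:248676985-248677284 (minus) and chr1:248787139-248787438 (minus), in the printed order. The start site that RefSeq gives Cyp2c12, Cyp2c13 and Cyp2c7 lies inside the outer limits of the gene given above, furthest inside for Cyp2c12.

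The Cyp2c12 and Cyp2c13 windows were the most alike of these 4, with 218 identical bases of 264 aligned (82.6%), against 68.4% to 75.2% for the other pairs, although these genes ran in opposite directions between pup and adult. Motifs were searched on both strands after the sequences had been seen, and a match is only a match of letters. The TATA-type motif TATAAA was found at base -31 from the start site in Cyp2c7 and Cyp2c11, at -41 in Cyp2c13 and at -52 in Cyp2c12, with a second match at -172 in Cyp2c7 and at -170 in Cyp2c13. It was also in the Cyp2c22 window, at -197, and so in 5 of the 6 windows, against 14.2% of 33469 rat promoter windows of the same length. The motif CAAAGNNCA, a site type of the hepatocyte factor Hnf4a, was found in Cyp2c7 at -123, in Cyp2c13 at -127 and in Cyp2c12 at -138. Of all windows, 6.08% held it. The motif ATCAAT, a site type of the factor Onecut1, stood in the same 3 genes, at -71 in Cyp2c7, -71 and -243 in Cyp2c12 and -60 in Cyp2c13, against 8.06% of all windows. The Stat5 site type TTCNNNGAA was in 0 of the 6 windows and in 8.87% of all windows. The motifs do not overlap each other in these windows.

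**Figure D1:**
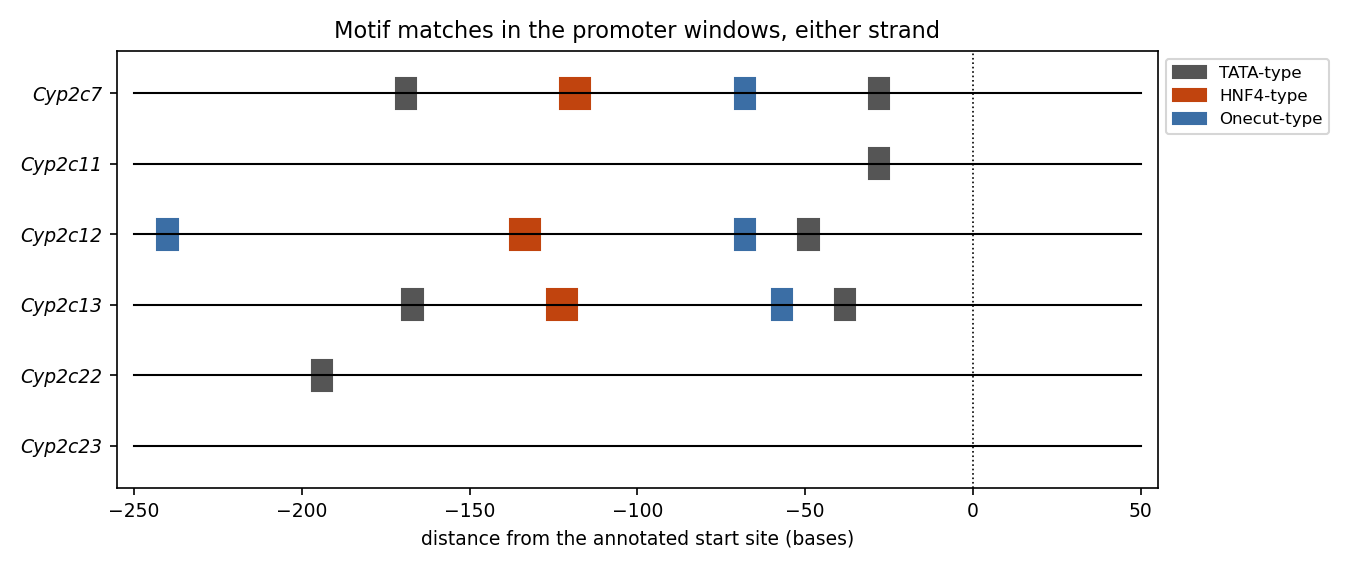
Motif matches on either strand in the promoter windows of the 6 Cyp2c genes, drawn by distance in bases from the annotated start site (dotted line). Grey boxes are TATA-type, orange boxes HNF4-type and blue boxes Onecut-type matches. Cyp2c7, Cyp2c12 and Cyp2c13 hold all 3 motifs, Cyp2c11 and Cyp2c22 the TATA-type alone, and Cyp2c23 none.

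The first question was how the Cyp2c genes differ between adult and pup liver in control males, a comparison that the submitters' design text does not list. All 6 genes passed the threshold, an adjusted p (limma, Benjamini-Hochberg over all probe sets) under 0.05, with 5 higher and 1 lower in adults. In all, 23.0% of probe sets passed: 10.3% of those tested were higher and 12.7% lower. The arrays of the 2 groups did not overlap for any of the 6 genes, against 16.0% of all probe sets. Adult and pup controls lay in different array sets, so array set and age cannot be told apart here. The mean of 6 stellate cell markers was 7.39 to 7.60 in adult controls, against 8.63 to 9.23 in male control pups, with 5 of the 6 lower. That of 4 erythroid markers was 7.24 to 8.29 in adult controls, against 8.54 to 9.34 in male control pups, with 3 of the 4 lower, and that of 5 endothelial markers 9.34 to 9.57, against 9.79 to 10.05, with 3 of the 5 lower. The part of these markers in the Cyp2c results was not tested.

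Cyp2c13, a male-specific hydroxylase of the adult, read 14.07, 14.19, 14.05, 14.10 and 14.05 in adult controls, against 4.41, 4.46, 6.45, 4.17 and 4.58 in male control pups. The pups lay below the array median except for replicate 3, and the adults near the top of the scale. The difference was 9.28 ± 0.48 (SE, adjusted p = 4.78e-15), or 621-fold, the largest of the 6.

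Cyp2c11, the other male-specific hydroxylase, read 13.93, 13.73, 14.06, 14.00 and 13.99 in adult controls, against 7.51, 6.84, 8.17, 6.98 and 5.98 in male control pups. Every adult was above every pup, by 6.85 ± 0.32 or 115-fold (adjusted p = 5.53e-16). Male control pup replicate 3, the highest of its group for Cyp2c13, was also the highest for Cyp2c11.

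Cyp2c12, the female-type steroid sulphate hydroxylase, read 9.45, 8.50, 8.97, 8.56 and 9.51 in adult male controls, against 13.59, 13.81, 13.92, 13.39 and 13.40 in male control pups. It was the only one of the 6 that was lower in adult males, and each adult was below each pup. The difference was -4.63 ± 0.17 (24.7-fold lower, adjusted p = 6.52e-19), the third largest fall among all probe sets.

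Cyp2c7 read 14.44, 14.32, 14.35, 14.33 and 14.20 in adult controls, against 10.40, 10.27, 8.78, 9.79 and 9.29 in male control pups. All adults were near the top of the scale and above all pups, by 4.62 ± 0.29 or 24.6-fold (adjusted p = 7.48e-13).

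Cyp2c22 and Cyp2c23 were high at both ages and differed far less. Cyp2c22 averaged 13.89 ± 0.15 in adult controls and 13.43 ± 0.23 in male control pups (SD, n = 5 each), a difference of 0.46 ± 0.13 (SE, adjusted p = 0.00888). Cyp2c23 averaged 13.61 ± 0.25 in adult controls and 12.91 ± 0.32 in male control pups, a difference of 0.69 ± 0.15 (adjusted p = 0.00107). Neither passed when the gap between the 3' and 5' probe sets of Gapdh, a sign of RNA integrity, entered as a covariate: 0.24 (adjusted p = 0.323) for Cyp2c22 and 0.48 (adjusted p = 0.0677) for Cyp2c23. That gap averaged 0.62 ± 0.18 in adult controls and 1.61 ± 0.33 in male control pups.

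**Figure D2:**
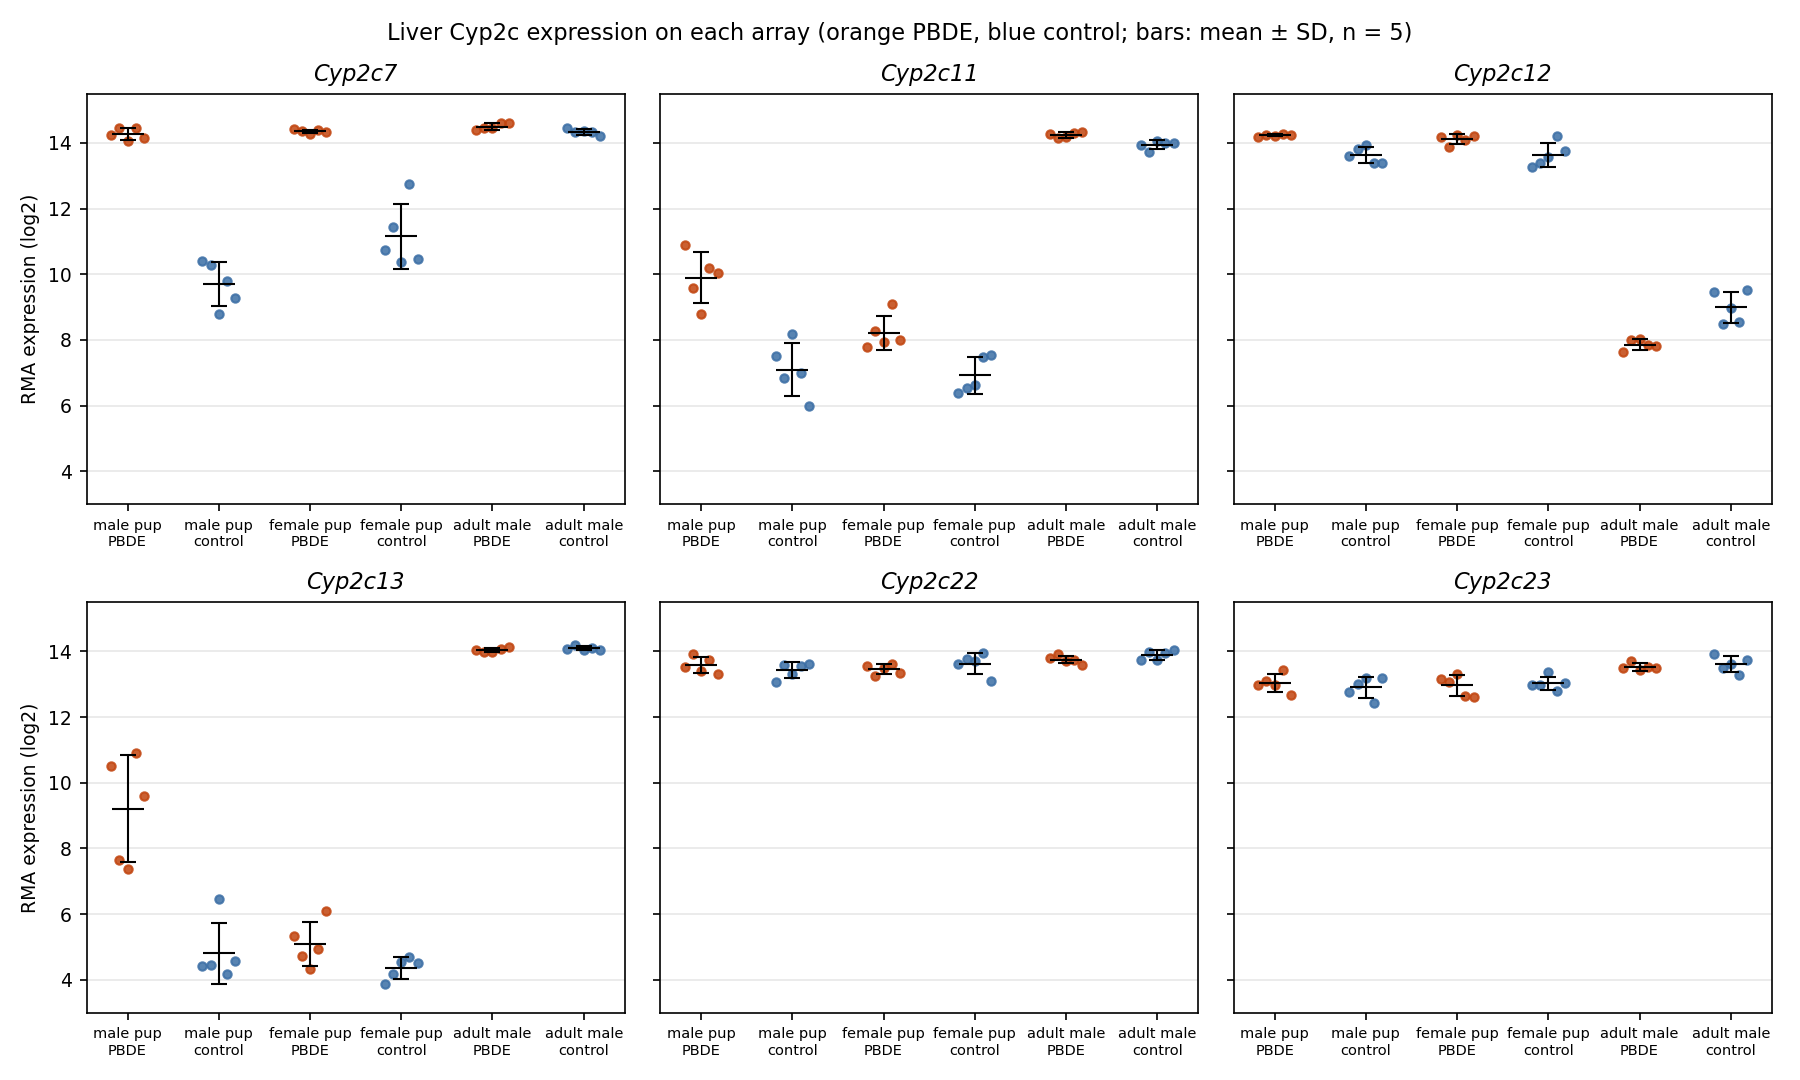
RMA log2 expression of each Cyp2c gene on each of the 30 arrays by group, with PBDE animals in orange and controls in blue. Points are arrays and bars the group mean ± SD (n = 5). Cyp2c7 reached a mean of 14.27 in male PBDE pups and 14.35 in female PBDE pups, Cyp2c13 was 9.21 in male PBDE pups and 5.09 in female PBDE pups, and Cyp2c12 was above 13 in all pups and below 10 in all adults.

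Male PBDE pups were then compared with male control pups, both in the same array set. At an adjusted p under 0.01, 3 of the 6 genes were higher (Cyp2c7, Cyp2c13 and Cyp2c11) and none was lower, where 5.33% of all probe sets passed in either direction and 2.89% of all probe sets were higher. The groups did not overlap for 4 of the 6, Cyp2c12 included, against 8.83% of probe sets. The median difference of the 6 was 1.70, against 0.01 for all probe sets.

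Cyp2c7, the retinoic acid hydroxylase, read 14.24, 14.46, 14.04, 14.46 and 14.14 in male PBDE pups, against 10.40, 10.27, 8.78, 9.79 and 9.29 in male controls. All PBDE pups were above all controls, and 3 of the 5 lay within the 14.20 to 14.60 of the adult rats, while replicates 3 and 5 lay below it. The difference was 4.57 ± 0.29 (23.7-fold, adjusted p = 7.45e-12), the 9th largest rise among the probe sets, with the PBDE values near the top of the scale.

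Cyp2c13 read 10.52, 7.66, 7.38, 10.90 and 9.61 in male PBDE pups, against 4.41, 4.46, 6.45, 4.17 and 4.58 in male controls. The PBDE pups were widely spread, with replicates 2 and 3 well below the other three, yet all were above the highest control. The difference was 4.40 ± 0.48 (21.1-fold, adjusted p = 2.19e-07), and PBDE pups averaged 9.21 ± 1.62, below the 14.04 ± 0.07 of adult PBDE rats. That SE pools the spread of all 6 groups, while the SDs here were 1.62 and 0.93, against 0.07 and 0.06 in adults. The call held under the 7 other settings. Control values of Cyp2c13, at the low end of the scale, make the fold uncertain.

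Cyp2c11 read 10.88, 9.58, 8.80, 10.19 and 10.04 in male PBDE pups, against 7.51, 6.84, 8.17, 6.98 and 5.98 in male controls. Replicates 2 and 3, the lowest PBDE pups for Cyp2c13, were also the lowest for Cyp2c11, and the groups did not overlap. The difference was 2.80 ± 0.32 (6.99-fold, adjusted p = 6.05e-07).

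Cyp2c12 read 14.18, 14.25, 14.21, 14.26 and 14.24 in male PBDE pups, against 13.59, 13.81, 13.92, 13.39 and 13.40 in male controls. The groups did not overlap, but the difference of 0.61 ± 0.17 missed the threshold (adjusted p = 0.016). It passed when only these 10 arrays were fitted (0.61, adjusted p = 0.00297).

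Cyp2c22 read 13.53, 13.93, 13.40, 13.73 and 13.32 in male PBDE pups, against 13.08, 13.58, 13.31, 13.54 and 13.62 in male controls. Cyp2c23 read 12.97, 13.11, 12.97, 13.43 and 12.68 in male PBDE pups, against 12.77, 13.00, 13.18, 12.43 and 13.18 in male controls. Both genes overlapped between the groups, and the differences of 0.15 (95% interval -0.11 to 0.42) and 0.12 (-0.19 to 0.43) did not pass the test (adjusted p = 0.529 and 0.708).

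Female PBDE pups were compared with female control pups in the same way, but these groups lay in different array sets, so array set and dose cannot be told apart. Cyp2c7 and Cyp2c11, 2 of the 6 genes, were higher and none was lower, where 4.24% of all probe sets passed in either direction and 2.55% of all were higher. The groups did not overlap for the same 2 genes, against 8.21% of probe sets.

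Cyp2c7 read 14.41, 14.35, 14.28, 14.38 and 14.34 in female PBDE pups, against 10.73, 11.45, 10.38, 12.75 and 10.45 in female controls. The PBDE pups were tightly grouped near the top of the scale and the controls varied, with replicate 4 highest, and there was no overlap. The difference was 3.20 ± 0.29 (9.17-fold, adjusted p = 1.09e-08). That SE pools the spread of all 6 groups, while the SDs here were 0.05 and 0.99. The call held under the 7 other settings.

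Cyp2c11 read 7.78, 8.26, 7.93, 9.08 and 8.01 in female PBDE pups, against 6.40, 6.54, 6.64, 7.48 and 7.54 in female controls. The lowest PBDE pup was just above the highest control. The difference of 1.29 ± 0.32 (2.45-fold) lay just inside the threshold (adjusted p = 0.00942). The call was lost in turn without each of female control replicates 1, 2 and 3 and female PBDE replicates 2, 3, 4 and 5, at values from 1.08 to 1.36 (adjusted p 0.0128 to 0.0393), and under 5 of 7 other settings.

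Cyp2c13 read 5.34, 4.74, 4.32, 4.94 and 6.09 in female PBDE pups, against 3.87, 4.19, 4.55, 4.70 and 4.50 in female controls. All but replicate 5 of the PBDE group were below the array medians and the groups overlapped (difference 0.72, interval -0.25 to 1.70, adjusted p = 0.432). Cyp2c12 read 14.18, 13.87, 14.24, 14.09 and 14.22 in female PBDE pups, against 13.25, 13.38, 13.56, 14.20 and 13.74 in female controls. Control replicate 4, also the highest control for Cyp2c7, lay among the PBDE pups, and the difference of 0.49 ± 0.17 did not pass (adjusted p = 0.0634). Cyp2c22 averaged 13.45 ± 0.15 in female PBDE pups and 13.62 ± 0.32 in female controls, and Cyp2c23 averaged 12.96 ± 0.32 and 13.02 ± 0.21 in the same order. Their arrays overlapped, with differences of -0.18 (interval -0.44 to 0.09) and -0.06 (-0.37 to 0.25).

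**Figure D3:**
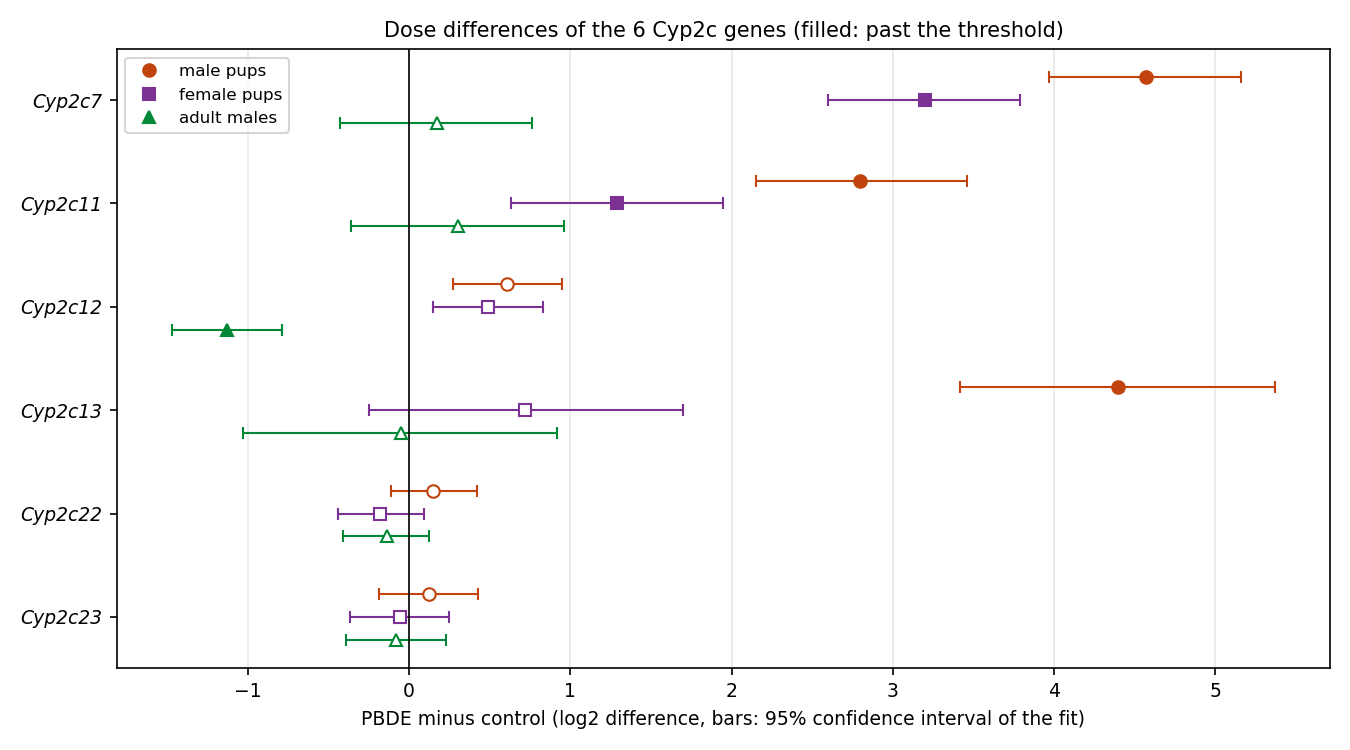
Log2 difference between PBDE and control animals for each Cyp2c gene in male pups (circles), female pups (squares) and adult males (triangles), with the 95% confidence interval of the fit. Filled symbols passed the threshold. Cyp2c7 stands at 4.57, 3.20 and 0.17, Cyp2c13 at 4.40, 0.72 and -0.05, and Cyp2c12 at 0.61, 0.49 and -1.13 in the order of the legend.

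Male and female pups were also compared within each dose. In control pups 0 of the 6 genes passed at an adjusted p under 0.01 in limma, against 0.0354% of probe sets. At an unadjusted p under 0.05 it was 1 gene, Cyp2c7, against 8.24% of probe sets. No gene had groups that did not overlap, as 1.33% of probe sets did. Cyp2c7 was the nearest, with 9.70 ± 0.68 in male controls and 11.15 ± 0.99 in female controls (SD, n = 5 each), a difference of -1.45 ± 0.29 (SE, adjusted p = 0.0382) with overlapping arrays. Cyp2c11 averaged 7.10 and 6.92, Cyp2c13 4.81 and 4.36, and Cyp2c12 13.62 and 13.63 in male and female controls, all with overlap. The intervals of these 3 differences ran from -0.48 to 0.83, from -0.52 to 1.43 and from -0.34 to 0.34.

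In PBDE pups Cyp2c13 was the 1 gene of the 6 that passed, where 0.0451% of all probe sets did in either direction and 0.0161% of all were higher. It averaged 9.21 ± 1.62 in male PBDE pups and 5.09 ± 0.67 in female PBDE pups, a difference of 4.13 ± 0.48 (17.5-fold, adjusted p = 5.69e-06). It was the 1 gene of the 6 without overlap between the sexes, against 0.921% of probe sets. With only these 10 arrays in the fit the same difference missed the threshold (4.13, adjusted p = 0.0404). Cyp2c11 averaged 9.90 ± 0.77 in male PBDE pups and 8.21 ± 0.51 in female PBDE pups, and the difference of 1.69 ± 0.32 did not pass (adjusted p = 0.0258). It did pass without male PBDE replicate 3 (1.96, adjusted p = 0.00227) or without female PBDE replicate 4 (1.90, adjusted p = 0.00622). Cyp2c7 averaged 14.27 and 14.35, and Cyp2c12 14.23 and 14.12, in male and female PBDE pups. These sexes lay in different array sets, so array set and sex cannot be told apart.

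The test of sex by dose takes the dose difference in male pups minus that in female pups, and the array set enters it through the female groups. For this test 0 of the 6 genes passed, as did 0 of all 31042 probe sets (0%) with limma, while 3 of the 6 and 5.08% of probe sets had an unadjusted p under 0.05. Cyp2c13 had the largest positive value of all probe sets, 3.68 ± 0.67 (adjusted p = 0.12). Without male PBDE replicate 3 it passed (4.14, adjusted p = 0.00738), and over the other left-out arrays its adjusted p reached 0.384. Cyp2c11 stood at 1.51 ± 0.45 and Cyp2c7 at 1.37 ± 0.41 (adjusted p = 0.761 for both). A difference between the sexes in the dose response of these genes was therefore not shown by this test.

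Adult male PBDE rats were compared with adult male controls at an adjusted p under 0.05, both in the same array set. Cyp2c12, the female-type gene, was lower and was the 1 gene of the 6 that passed, where 2.98% of all probe sets did in either direction and 1.64% of all were lower. The arrays of the groups did not overlap for 2 of the 6 genes, Cyp2c12 and Cyp2c11, against 3.71% of probe sets.

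Cyp2c12 read 7.62, 8.01, 8.02, 7.86 and 7.81 in adult PBDE rats, against 9.45, 8.50, 8.97, 8.56 and 9.51 in adult controls. Every PBDE rat was below every control. The difference was -1.13 ± 0.17 (2.19-fold lower, adjusted p = 1.07e-04).

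Cyp2c11 read 14.26, 14.14, 14.19, 14.29 and 14.33 in adult PBDE rats, against 13.93, 13.73, 14.06, 14.00 and 13.99 in adult controls. The PBDE rats were all above the controls, by 0.30 ± 0.32, which did not pass the test (adjusted p = 0.708). That SE pools the spread of all 6 groups, while the SDs here were 0.08 and 0.13, and with only these 10 arrays the adjusted p was 0.112. Whether the scale compresses values at this level was not tested.

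Cyp2c7 read 14.39, 14.44, 14.44, 14.59 and 14.60 in adult PBDE rats, against 14.44, 14.32, 14.35, 14.33 and 14.20 in adult controls. Cyp2c13 read 14.05, 13.98, 13.97, 14.07 and 14.13 in adult PBDE rats, against 14.07, 14.19, 14.05, 14.10 and 14.05 in adult controls. Both overlapped between the groups (differences 0.17 and -0.05, adjusted p = 0.838 and 0.973). Their SEs of 0.29 and 0.48 also pool all 6 groups. The SDs here were 0.10 and 0.09 for Cyp2c7 and 0.07 and 0.06 for Cyp2c13. Neither gene passed under the 7 other settings. Cyp2c22 averaged 13.75 ± 0.12 in adult PBDE rats and 13.89 ± 0.15 in adult controls, and Cyp2c23 averaged 13.52 ± 0.11 and 13.61 ± 0.25 in the same order. Their differences of -0.14 (interval -0.41 to 0.12) and -0.08 (-0.39 to 0.23) did not pass.

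The test of age by dose takes the dose difference in adult males minus that in male pups, in which a shift between array sets cancels. It was negative and past an adjusted p of 0.05 for 4 of the 6 genes, where 1.87% of all probe sets passed in either direction and 1.03% of all in the negative one. Cyp2c13 stood at -4.45 ± 0.67 (adjusted p = 3.92e-04), Cyp2c7 at -4.40 ± 0.41 (1.18e-07), Cyp2c11 at -2.50 ± 0.45 (0.00284) and Cyp2c12 at -1.74 ± 0.23 (8.58e-05). All 4 calls held with each array left out in turn and under the 7 other settings. For Cyp2c7, Cyp2c11 and Cyp2c13 the adult controls averaged 14.33, 13.94 and 14.09, near the top of the scale, and the part of that in the age difference was not tested. Cyp2c6v1, a Cyp2c gene outside the chosen 6, was looked at after its values were seen. It averaged 14.65 in adult PBDE rats and 14.20 in adult controls (0.45, adjusted p = 4.25e-05). Its levels too lay near the top of the scale, and whether the scale compresses values there was not tested. Cyp2c12 lay lower in adults, between 7.62 and 9.51. Cyp2c22 (-0.30, interval -0.67 to 0.08) and Cyp2c23 (-0.20, interval -0.64 to 0.24) did not pass.

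Over the 6 group means Cyp2c13 ranged most, 849-fold, then Cyp2c11 (160-fold), Cyp2c12 (82.4-fold) and Cyp2c7 (27.6-fold). Cyp2c23 (1.62-fold) and Cyp2c22 (1.38-fold) ranged least. Their group means ran from 12.91 to 13.61 and from 13.43 to 13.89, and whether the scale compresses values there was not tested. Cyp2c11 was highest in adult PBDE rats, then adult controls, male PBDE pups, female PBDE pups, male control pups and female control pups, and only the first 2 steps of that order separated the arrays. Cyp2c13 was highest in adult controls and adult PBDE rats, which overlapped, then male PBDE pups and female PBDE pups, each step without overlap, and the control pups overlapped with female PBDE pups. Cyp2c12 was high in all 4 pup groups, whose neighbours overlapped, then adult controls and last adult PBDE rats, each apart from the group above. For Cyp2c7 both adult groups and both PBDE pup groups overlapped at the top, and the 2 control pup groups overlapped below them. For Cyp2c22 and Cyp2c23 every neighbour in the order overlapped.

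Across the 30 arrays Cyp2c11 and Cyp2c13 moved together (Pearson r = 0.98) and both ran opposite to Cyp2c12 (r = -0.89 and -0.87). These arrays share groups and array sets, and adult against pup makes most of the spread, so r is a description. The Cyp2c13 probe set is also of a kind that can bind related transcripts, and the part of that in its likeness to Cyp2c11 was not tested. The genes most like Cyp2c11 were the reductase Akr1c13 (r = 0.986), the transporter gene Ust5r (0.983) and LOC102546992 (0.982). For Cyp2c13 they were Cyp2c11 itself, Ust5r (0.973) and the peroxisomal oxidase Hao2 (0.970). Ust5r had its highest control pup in male replicate 3 (6.65, with the other male control pups at 4.24 to 5.18), the animal that was also highest for Cyp2c11, Cyp2c13 and Hao2 (6.58). Ust5r and Hao2, like Apoa2 below, were picked for likeness over these same arrays, so a shared high animal is no separate result. For Cyp2c7 the same animal was the lowest of the male control pups, at 8.78. The genes most like Cyp2c12 were Tox (0.968), the exporter Abcc5 (0.963) and the glycerol channel Aqp7 (0.958). Those most like Cyp2c7 were the apolipoprotein Apoa2 (0.943), the sulfotransferase Sult1b1 (0.942) and Vkorc1l1 (0.916). Apoa2 averaged 13.95 ± 0.12 in male PBDE pups and 12.09 ± 0.39 in male controls, and like Cyp2c7 it had its highest female control pup in replicate 4. Likeness was weaker for Cyp2c23, with Reep3 (0.869), Enpp1 (0.865) and the aldehyde dehydrogenase Aldh2 (0.855), and weakest for Cyp2c22, with C4h2orf81 (0.737), Slco1a5 (0.734) and Phaf1 (0.734).

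Genes that serve or control Cyp2c enzymes were counted in lists. As a background for each list, 5.33% of all probe sets passed in either direction in male pups, 4.24% in female pups and 2.98% in adults. A list of 7 measured genes covered electron supply to P450s and haem turnover, the latter by the haem enzymes Alas1 and Hmox1. Of these, 3 rose in male pups, the same number in female pups and 1 in adults, with none lower. The median difference of the list was 0.39 in male pups, 0.41 in female pups and 0.17 in adults, against 0.02, 0.02 and 0.01 for all genes. Por, the reductase that all microsomal P450s need, read 10.92, 11.32, 11.33, 11.17 and 11.12 in male PBDE pups, against 10.14, 10.06, 9.66, 10.15 and 10.21 in male controls. It rose without overlap in all 3 comparisons, by 1.13 ± 0.14 (adjusted p = 2.05e-06), 1.31 ± 0.14 (2.30e-07) and 1.15 ± 0.14 (5.34e-06). Cytochrome b5, encoded by Cyb5a, rose by 0.41 in male and 0.45 in female pups (adjusted p = 4.16e-04 and 1.63e-04), and so did the haem-binding partner Pgrmc1, by 0.33 and 0.30 (3.89e-04 and 0.00146).

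Of 17 measured genes of growth hormone signalling and sex-specific regulation, 0 passed in male pups with limma, where Cyp2c11 and Cyp2c13 rose, and 4 had an unadjusted p under 0.05, or about the share of all probe sets that did (23.4%). In female pups 1 rose, the factor Cebpb (0.58 ± 0.12, adjusted p = 0.00266), and 1 fell, Igfals, which encodes a carrier subunit of circulating IGF (-0.62 ± 0.13, adjusted p = 0.00149). In adults 2 fell, Socs2 and Onecut1. The list's median was 0.17 in male pups, 0.04 in female pups and -0.11 in adults. Socs2, a growth hormone target that dampens the hormone's receptor signal, read 6.37, 6.73, 8.30, 6.37 and 6.05 in adult PBDE rats, against 8.37, 8.88, 8.92, 8.70 and 9.39 in adult controls. PBDE replicate 3 came close to the controls and there was no overlap (-2.09 ± 0.35, adjusted p = 5.57e-04; age by dose -2.70, adjusted p = 0.00281). Onecut1, a factor known to bind the Cyp2c12 promoter in rat, read 8.25, 9.61, 11.10, 9.68 and 10.57 in adult PBDE rats, against 11.55, 10.81, 11.76, 10.81 and 11.63 in adult controls. The groups overlapped, and the difference of -1.47 ± 0.41 (adjusted p = 0.0472) was lost in 11 of 17 alternatives, for instance with only these arrays (adjusted p = 0.15).

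The growth hormone receptor Ghr differed by 0.38 in male pups, 0.44 in female pups and -0.32 in adults (adjusted p = 0.137, 0.099 and 0.324). Stat5b, which carries its signal, differed by 0.02, 0.04 and -0.22 (adjusted p = 0.933, 0.873 and 0.18). The repressors Bcl6 and Cux2, the first male-biased and the second female-biased in rodent liver, did not pass in any comparison. Bcl6 stood at 0.21, -2.12 and 0.28 (adjusted p = 0.889, 0.0307 and 0.879) and Cux2 at 0.53, -0.12 and 0.19 (adjusted p = 0.31, 0.891 and 0.82). Hnf4a stood at -0.33, -0.25 and 0.10 (adjusted p = 0.0708, 0.235 and 0.736), the order being male pups, female pups and adults throughout.

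**Figure D4:**
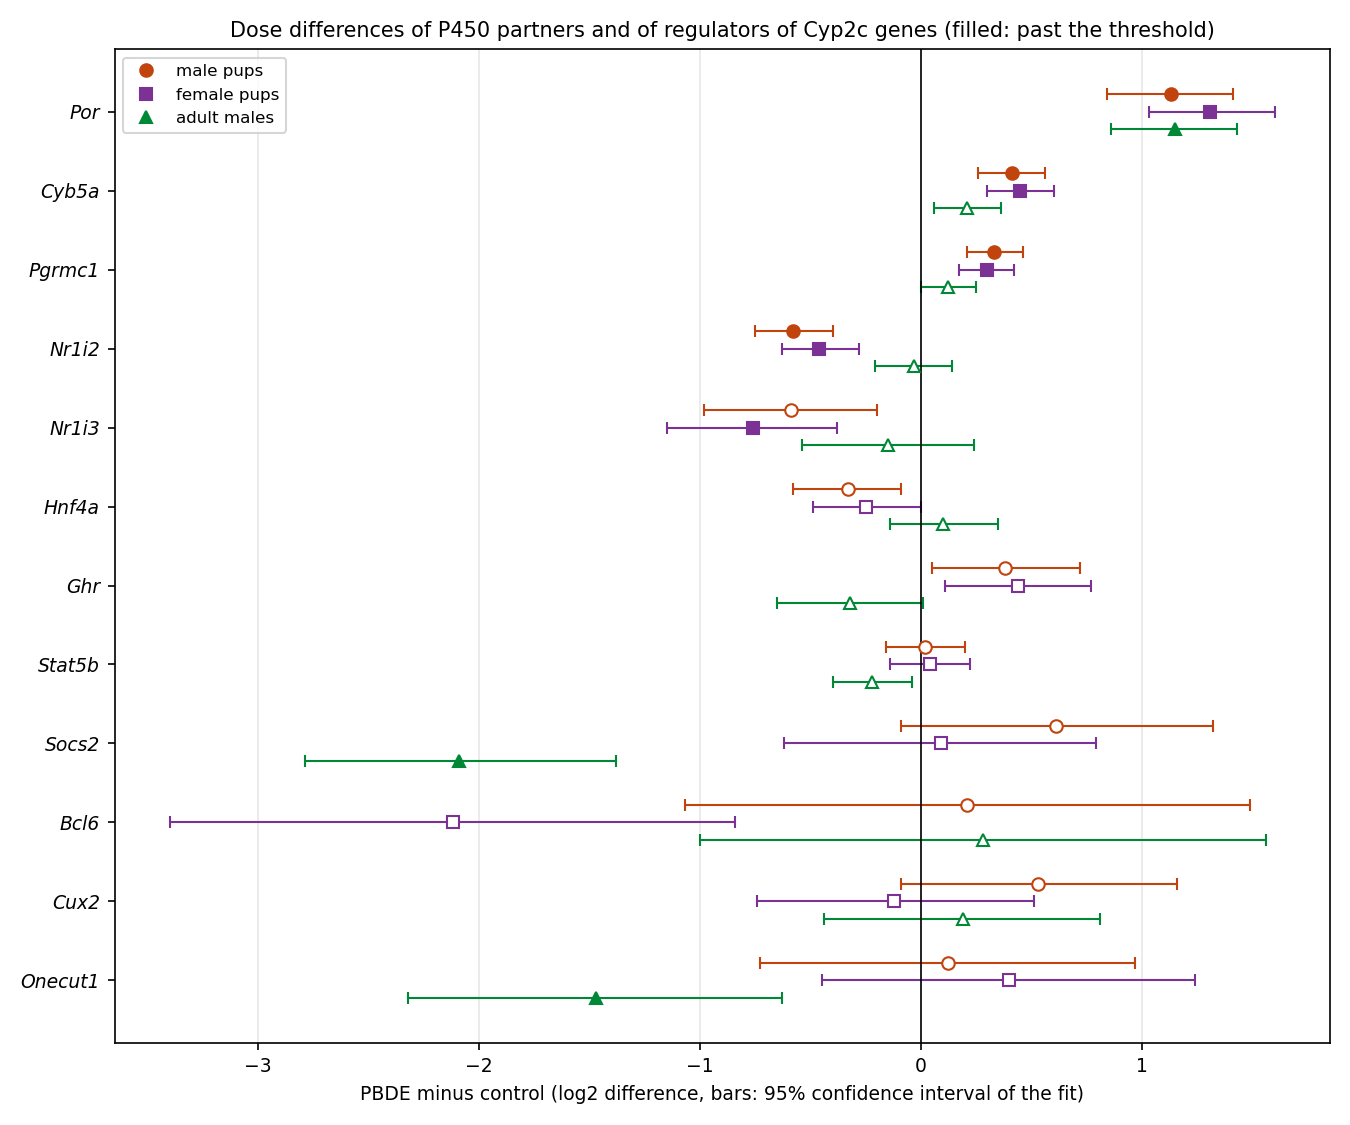
Log2 difference between PBDE and control animals in male pups (circles), female pups (squares) and adult males (triangles) for Por, Cyb5a, Pgrmc1 and 9 receptors and regulators of Cyp2c genes, with the 95% confidence interval of the fit. Filled symbols passed the threshold. Por rose in all 3 comparisons, Nr1i2 fell in both sexes of pup, and Socs2 (-2.09) and Onecut1 (-1.47) fell in adults.

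Of 10 measured xenobiotic receptors and partners, 2 fell in male pups and 3 in female pups, with none higher, and 1 rose in adults, against list medians of -0.15, -0.25 and 0.00. Nr1i2, the pregnane X receptor, fell by 0.58 (adjusted p = 3.23e-05) and 0.46 (6.19e-04) in male and female pups. The bile acid receptor Nr1h4 fell by 0.39 in male pups (adjusted p = 0.00754) and rose in adults (0.36, adjusted p = 0.0342). Nr1i3, the constitutive androstane receptor, stood at -0.59 in male pups (adjusted p = 0.0424) and -0.76 in female pups (adjusted p = 0.00932), and the call in female pups was lost in 14 of 17 alternatives (adjusted p 0.00189 to 0.0398). Ppargc1a, a coactivator, fell by 0.59 in female pups (adjusted p = 0.00189).

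Among 17 other measured CYP2 genes, 5 rose in male pups, 4 in female pups, and 1 fell in adults (list medians 0.10, 0.02 and 0.03). Cyp2a3 read 10.81, 10.17, 12.25, 10.43 and 10.81 in male PBDE pups, against 5.22, 5.33, 5.15, 7.02 and 5.62 in male controls, with no overlap and a difference of 5.23. Of 11 measured sex-biased adult liver genes outside Cyp2c, 4 rose in male pups, 2 rose and 1 fell in female pups, and 1 rose in adults (list medians 0.72, 0.23 and 0.14). The count does not separate male-biased from female-biased genes. Those that rose in male pups were Sult1e1 (5.13), Cyp3a9 (1.56), Cyp2a2 (0.82) and Cyp2a1 (0.72). The other 7 did not pass there, among them Obp3 (0.04, adjusted p = 0.89) and Hsd11b1 (-0.21, adjusted p = 0.0976). Obp3 was 9.71 higher in adult controls than in male control pups. Hsd11b1 was the 1 that fell in female pups (-0.41, adjusted p = 9.14e-04). Sult1e1, an oestrogen sulfotransferase that is male-biased in rat liver, read 11.77, 9.56, 11.54, 11.54 and 11.89 in male PBDE pups, against 6.48, 6.43, 7.10, 5.20 and 5.47 in male controls. Its replicate 3 in male controls was the highest of that group, as for Cyp2c11 and Cyp2c13, and the age-by-dose value was -5.41 (adjusted p = 1.13e-07).

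For the substrates of Cyp2c7, Cyp2c22 and Cyp2c23, 15 measured genes of retinoid handling and 15 of arachidonic acid epoxygenation were counted. Of the retinoid genes 1 rose in male pups, 1 rose and 2 fell in female pups, and 2 rose in adults (medians -0.03, 0.00 and 0.09). The shares of all probe sets that passed in either direction were 5.33%, 4.24% and 2.98% in the same order. Aldh1a1, which makes retinoic acid, rose in all 3, by 1.50, 1.52 and 1.54 (adjusted p = 2.18e-07, 2.65e-07 and 4.22e-07). Lrat, which esterifies retinol, fell by 0.77 in female pups (adjusted p = 0.00164). Of the arachidonic acid genes 2 rose and 1 fell in male pups, 2 rose in female pups, and 2 rose and 1 fell in adults (medians 0.01, 0.01 and -0.11). Ephx1, the microsomal epoxide hydrolase, rose in all 3, by 1.31, 1.17 and 0.77, while Ephx2, the soluble one, fell by 0.51 in male pups (adjusted p = 0.00822).

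Other measures moved with dose in the same livers, and their part in the Cyp2c results was not tested. Beside the counts below, the share of all probe sets that passed was 5.33% in male pups, 4.24% in female pups and 2.98% in adults. In male pups 3 of 5 measured endothelial markers fell, with list means of 9.18 to 9.51 in PBDE pups, against 9.79 to 10.05 in controls, and 1 of 7 macrophage markers fell, with list means of 8.70 to 8.85, against 9.10 to 9.29. In female pups 1 of 5 endothelial and 0 of 7 macrophage markers fell, and in adults 0 of each did. The macrophage list median was -0.41 in male pups, -0.16 in female pups and -0.42 in adults, and the endothelial one -0.47, -0.34 and -0.11. Macrophage list means were 8.42 to 9.16 in adult PBDE rats, against 8.99 to 9.64 in adult controls, with overlap. The mean of the hepatocyte markers was 14.48 to 14.58 in male PBDE pups, against 14.31 to 14.44 in controls. Of the 9 markers 1 was higher, Apoa2 (1.87), which is also the gene most like Cyp2c7, while the list median was -0.05. In female pups Apoa2 was higher (1.92) and Ambp lower (-0.18, adjusted p = 0.00935), with a list median of -0.02. Of 3 measured cholangiocyte markers 1 was higher in all 3 comparisons, Epcam, by 1.07 in male pups, 0.92 in female pups and 1.13 in adults (adjusted p = 1.41e-04, 9.35e-04 and 3.17e-04). The cholangiocyte list mean was 6.36 to 6.62 in adult PBDE rats, against 5.94 to 6.25 in adult controls, without overlap, and it overlapped between the pup groups. The other cholangiocyte markers did not pass. Krt19 stood at -0.28, -0.32 and -0.23 and Krt7 at 0.12, -0.15 and 0.05 in male pups, female pups and adults. The erythroid list mean was 8.95 to 9.31 in female PBDE pups, against 8.38 to 8.81 in female controls, without overlap. There 0 of the 4 erythroid markers passed with limma and 3 had an unadjusted p under 0.05, against 20.3% of all probe sets. Slc12a1 was the 1 of 4 kidney markers higher in adult PBDE rats (1.51, adjusted p = 0.00362, with overlap). The Gapdh 3' to 5' gap averaged 2.09 ± 0.65 in male PBDE pups and 1.61 ± 0.33 in controls, 1.93 ± 0.30 and 1.26 ± 0.50 in female pups, and 1.17 ± 0.62 and 0.62 ± 0.18 in adults, PBDE first (SD, n = 5 each). With that gap as a covariate every dose call of the 6 Cyp2c genes held, except Cyp2c11 in female pups (1.19, adjusted p = 0.042).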

How the data were processed

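Liver RNA of 30 rats in 6 groups of 5 was measured on Affymetrix arrays, 50 ng of total RNA per array with a 2-cycle labelling from the 3' end, per the labels' protocols. The authors deposited log2 values, which came out of RMA according to the submitters' processing notes; the software version is not given in the sources used here. Of 31099 probe sets, 57 controls were left out. The platform table tied 20826 of the other 31042 to 1 gene, 436 to several and 9780 to none. A gene was read from its probe set with the highest mean; each Cyp2c gene had 1, and that of Cyp2c13 is of a kind (_s_at) that can bind related transcripts.

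A model with 6 group means was run over the 30 arrays (limma 3.58.1, R 4.3.3, eBayes, Benjamini-Hochberg over 31042 probe sets) and tested on simulated data. Each SE of this model pools the spread of all 6 groups, so it can lie below or above what the compared groups alone would give. Thresholds follow the submitters' design text (0.01 for pups, 0.05 for adults), whose tool, R/maanova, was not run; 0.05 was also used for age by dose and for adult minus pup. Alternatives were the compared groups only, a replicate block, an eBayes with trend and robust settings, a test with unshrunken variances, quantile normalization applied once more, a filter on low values, a Gapdh covariate and leaving out each array. A second probe set for a member could not be tried, since each has 1.

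The members and lists were chosen with earlier results of these data known. From each list up to 4 genes past the threshold with the largest dose change could be named, beside 9 regulators, and for each member the 3 genes with the highest correlation. Apoa2, Ambp, Slc12a1, Epcam, Krt7, Krt19, Obp3, Hsd11b1 and the genes named for single animals were chosen after their values were seen. The number of arrays limits the precision. Promoter sequences come from RefSeq (GRCr8), which held a window for all 6 members. Protein sequences were not used here.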

Additional observations from a re-analysis of the deposited data

Results flagged for a closer look

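For Cyp2c13, male control pup replicate 3 stood apart from its group at 6.45, with the others between 4.17 and 4.58, a gap of 0.819 of the group's range. The Gapdh 3' minus 5' difference of adult PBDE replicate 5 stood apart at 2.25, with the others between 0.73 and 1.04 (0.792 of the range). These were 2 of 42 groups of 5 values examined, where chance gives about 1 in 20.

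The dose difference itself differed between adult males and male pups for 4 genes by the age-by-dose test: Cyp2c13 at -4.45, Cyp2c7 at -4.40, Cyp2c11 at -2.50 and Cyp2c12 at -1.74.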

How the results depend on the processing

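Of 48 member differences, 33 kept their direction and their side of the threshold under every alternative, as did 898 of 936 alternative values. With the compared groups only, Cyp2c12 in male pups passed (0.61), Cyp2c11 in female pups (1.29) and Cyp2c13 between PBDE sexes (4.13) did not, and the counts of probe sets called were 269, against 924, in adults and 8, against 14, between PBDE sexes. Cyp2c11 in female pups also lost its call at 1.29 with a replicate block (adjusted p = 0.0125), a trended robust eBayes (0.0176) and no shrinkage (0.0217), and at 1.19 with the Gapdh covariate. The block changed no other member call. Whether replicate numbers pair animals is not given by the labels. Over all pairs of groups the mean residual correlation was 0.00417 for the same number and -9.06e-04 for others. Of 75 same-number pairs 18 lay above 0.1, and 11 of 30 arrays were most like their own number. Pairing within single pairs of groups, such as the sexes at one dose, was not tested. With the Gapdh covariate Cyp2c23 turned to 0.09 in female pups and 0.04 in adults, and Cyp2c12 to 0.04 between control sexes. From adult minus pup in controls 4305 probe sets then passed, against 7146, with Cyp2c22 at 0.24 and Cyp2c23 at 0.48. Cyp2c12 between control sexes was 0.03 after renewed quantile normalization. The cause of these changes was not tested.

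With each array left out, Cyp2c11 ran from 1.08 to 1.45 in female pups, from 1.44 to 1.96 between PBDE sexes and from -0.09 to 0.45 between control sexes. Cyp2c13 sex by dose ran from 3.25 to 4.14. Cyp2c23 ran from 0.00 to 0.21 in male pups, -0.15 to 0.03 in female pups, -0.18 to 0.01 between control sexes and -0.03 to 0.16 between PBDE sexes. Cyp2c12 ran from -0.10 to 0.14 between control sexes and -0.03 to 0.21 for sex by dose. Calls numbered 597 to 1032 in adults, lowest without adult PBDE replicate 4, and 0 to 1 for sex by dose. For age by dose they numbered 365 to 703, with 376 without male PBDE pup replicate 4, 365 without male control pup replicate 5 and 373 without adult PBDE replicate 4. Levels near the top of the scale may limit what could be seen for Cyp2c7, Cyp2c11 and Cyp2c13 in adults, for Cyp2c7 and Cyp2c12 in PBDE pups and for Cyp2c6v1 in all groups, which was not tested. Cyp2c22 and Cyp2c23 were high in all groups as well, and the same was not tested for them.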

Other observations

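Cyp2c6v1, a Cyp2c gene outside the chosen members, was looked at after its values were seen. It rose in all 3 dose comparisons: by 0.59 ± 0.06 in male pups (adjusted p = 1.14e-07), 0.55 ± 0.06 in female pups (6.21e-07) and 0.45 ± 0.06 in adults (4.25e-05). It read 14.70, 14.56, 14.67, 14.63 and 14.69 in adult PBDE rats, against 14.28, 14.29, 14.18, 14.01 and 14.23 in adult controls, without overlap. Adult and pup controls averaged 14.20 and 14.16. Its age-by-dose value was -0.14 (adjusted p = 0.5), read wholly near the top of the scale, with group means of 14.16 to 14.75.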
